A study of Mus musculus with 8 samples.

Results

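Pdk4 encodes a kinase that switches off the pyruvate dehydrogenase complex, and its transcript is examined here with those of the other genes that set the activity of that complex, in whole mouse knee joints. The genes are the 4 pyruvate dehydrogenase kinases Pdk1, Pdk2, Pdk3 and Pdk4, the phosphatases Pdp1 and Pdp2, the subunits Pdha1 and Pdhb of the first enzyme of the complex, and Ucp3 and Angptl4, targets of the fatty-acid receptors of the PPAR family. All 10 were found by name among the 20681 genes of the table, and all 10 passed the filter on low values. They were chosen by a rule that used earlier results of these same libraries, in which Pdk4 was among the genes that fell, so their differences between the groups, and the calls that a fit across all genes gave them, are a description of these libraries and no independent test. Ucp3 and Angptl4 were listed as genes that follow Pdk4. Ucp3 moved in the same direction as Pdk4, and the mean of Angptl4 lay in the opposite one.

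The 8 libraries come from knee joints of mice given as Acan-Cre;Loxl2 fl/fl (Jax #019148), with Cre driven by Acan and floxed Loxl2 alleles. Of these, 4 are labelled as vehicle-treated controls and 4 as conditional knockouts of LOXL2, a lysyl oxidase that crosslinks collagen. The library names give the controls as wild type for LOXL2 (LOXL2wt), the others as LOXL2ko, and carry DMM in all 8, an abbreviation the labels do not spell out and that commonly means surgical destabilisation of the medial meniscus. Age, sex and what the knockout mice received in place of vehicle are not given in the sources used here. The labels name no inducer of Cre and do not say whether it needs one. Cre driven by Acan acts in cells that express aggrecan, such as cartilage cells, whereas the RNA is that of the whole joint with its muscle. About 400 ng of RNA went into each library, and nothing says whether the 4 replicates of a group are separate animals, so every spread below is that between libraries.

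The pyruvate dehydrogenase complex turns pyruvate into acetyl-CoA in mitochondria and so commits carbon from sugar to oxidation. The kinases phosphorylate its Pdha1 subunit and stop it, and the phosphatases remove the phosphate and start it again. In skeletal muscle Pdk4 is known as the kinase gene that rises in fasting, in exercise and with fatty acids, through PPAR, FoxO and glucocorticoid receptors, which spares glucose while fat is burned.

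The promoters of Pdk4, Ucp3 and Pdk2 are shown because these genes had the 3 largest falls among the 10. RefSeq (GRCm38.p6) has an entry for 8 of the 10 genes, and Pdp1 and Angptl4 are named only. The stretches below hold bases before the start of transcription in both RefSeq and GENCODE, on the gene's own strand. Positions of matches are counted from the RefSeq start, which is 5496278 for Pdk4, 100472991 for Ucp3 and 95041371 for Pdk2, so the printed stretch of Pdk4 ends short of it. Pdk4 is shown from chr6:5496310-5496528 (minus strand, 219 bases), Ucp3 from chr7:100472741-100472989 (plus strand, 249 bases) and Pdk2 from chr11:95041372-95041621 (minus strand, 250 bases). Capitals mark matches, on either strand, to AGGTCA (the core site of PPAR and other nuclear receptors), GTAAACA (FoxO), TGTTCT (a core site of the glucocorticoid receptor) or CCAAT (the CCAAT box).
Pdk4: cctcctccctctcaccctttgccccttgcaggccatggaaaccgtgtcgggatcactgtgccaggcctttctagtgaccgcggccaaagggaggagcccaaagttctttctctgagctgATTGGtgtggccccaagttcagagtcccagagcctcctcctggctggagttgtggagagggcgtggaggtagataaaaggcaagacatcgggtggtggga
Ucp3: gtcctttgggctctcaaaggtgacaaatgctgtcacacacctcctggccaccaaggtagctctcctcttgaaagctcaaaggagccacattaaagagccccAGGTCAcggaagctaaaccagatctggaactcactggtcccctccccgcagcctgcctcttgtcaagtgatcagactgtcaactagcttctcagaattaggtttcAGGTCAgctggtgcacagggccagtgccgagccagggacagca
Pdk2: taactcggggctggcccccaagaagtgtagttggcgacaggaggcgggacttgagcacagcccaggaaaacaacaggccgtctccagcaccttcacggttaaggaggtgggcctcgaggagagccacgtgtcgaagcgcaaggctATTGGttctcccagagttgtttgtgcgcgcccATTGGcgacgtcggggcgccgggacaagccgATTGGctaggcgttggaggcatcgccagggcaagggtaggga
In the 250 bases before the start, Ucp3 held AGGTCA at 149 and at 44 bases before it, and it was the 1 gene of the 8 with that motif. AGGTCA stood in 14.0% of the 32851 RefSeq promoters searched the same way. Pdk4 held a CCAAT box 131 bases before its RefSeq start and no match to the other motifs. Pdk2 held 3 CCAAT boxes in the entry shown, between 105 and 42 bases before its start. At least 1 CCAAT box stood in 5 of the 8 genes and in 33.8% of all promoters. These shares differ in unit. The 8 genes have 10 promoter entries and a gene was counted if any entry matched, whereas all promoters were counted by entry. None of the 8 held GTAAACA, which stood in 3.17% of all promoters. TGTTCT was found in a second entry of Pdk1 and stood in 16.1% of all promoters. These are matches of letters in a short window and say nothing of binding.

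The libraries held 13991000 to 17411617 reads assigned to genes. Values are normalised read counts, and a difference is the log2 level in the libraries labelled knockout minus that in the controls, with the standard error (SE) of a limma fit across 14949 genes. A gene is called where its p-value, adjusted over those genes by the Benjamini-Hochberg method, is under 0.05. Loxl2, the targeted gene, went against its label. Its values were 282, 349, 1135 and 311 across control replicates 1 to 4, against 893, 1468, 960 and 1518 in the libraries labelled knockout, a log2 difference of 1.44 (SE 0.40, limma adjusted p = 0.0294, exact two-sided permutation p = 0.0857). That call was lost without control replicate 1, 2 or 4 and without knockout replicate 2 or 4. The labels are therefore kept as labels, and every direction below is that of the libraries so labelled. Of the genes tested, 23.2% were called, 11.6% as lower and 11.6% as higher. The groups did not overlap for 13.4% of the genes in the lower direction and 11.7% in the higher.

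Against that background, 6 of the 10 genes were called, 5 lower and 1 higher. Lower were Pdk4, Pdk2, Pdha1, Pdhb and Ucp3, and Pdk3 was higher. The groups did not overlap for Pdk4, Pdk2, Pdha1 and Ucp3 (lower) and for Pdk3 (higher), which makes 4 and 1. Since the genes were chosen with this contrast known, these counts describe them and nothing is read from them. The median difference was -0.32 over the 10 genes and 0.00 over all genes tested. Without control replicate 2, or without knockout replicate 4, 3 of the 10 were called.

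**Figure D1:**
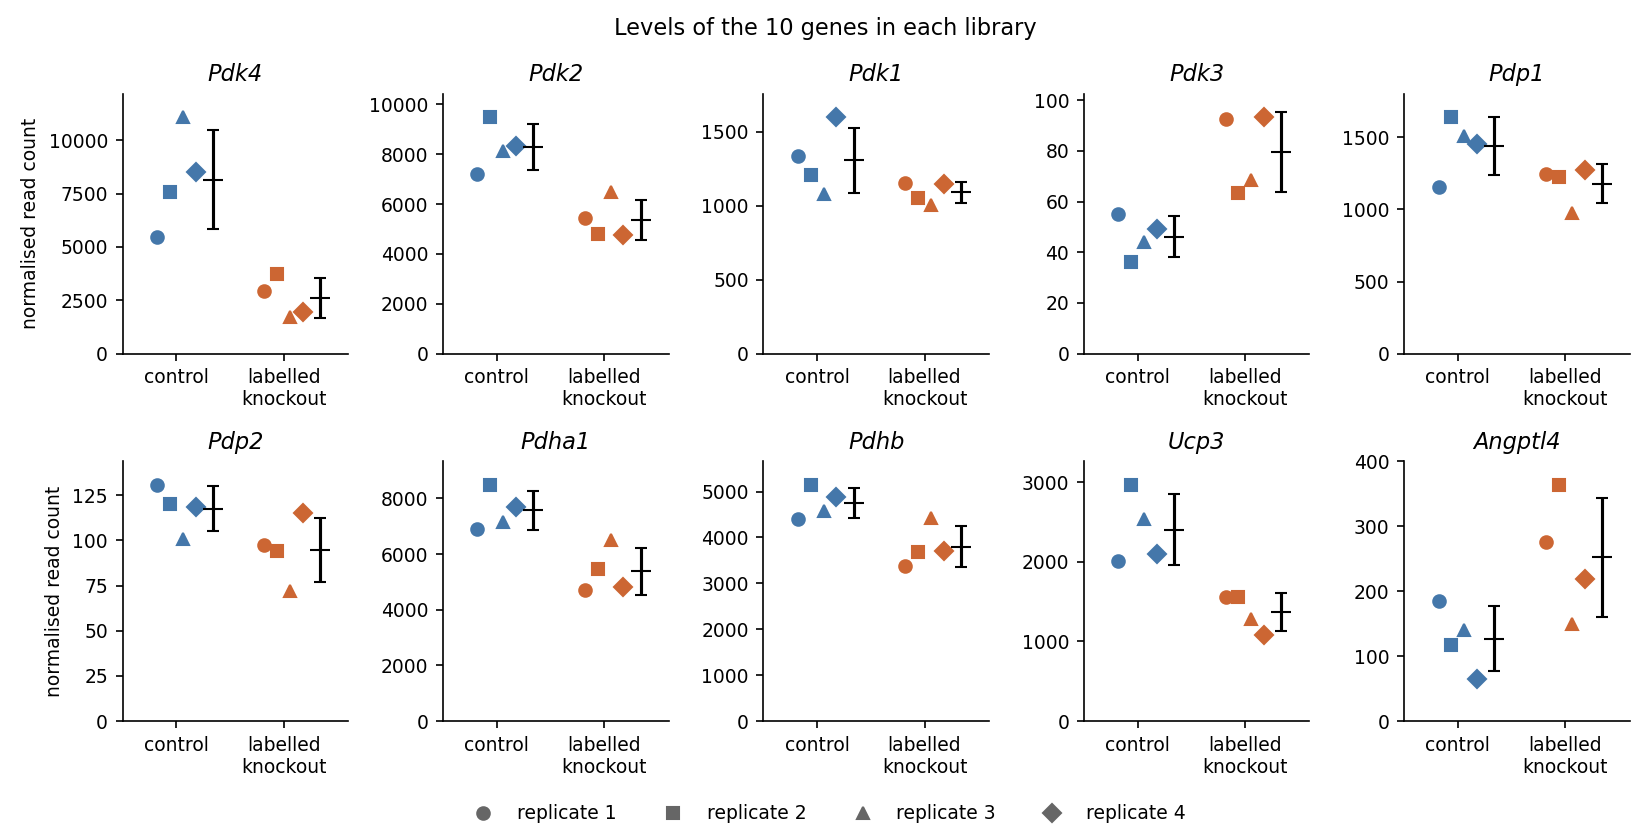
Normalised read count (y axis, linear, from 0) of each of the 10 genes in the 4 control libraries (blue) and the 4 labelled knockout (orange). Marker shapes give the replicate number, and the bars give the group mean ± SD. The groups are apart for Pdk4, Pdk2, Pdk3, Pdha1 and Ucp3 and overlap for the other 5 genes.

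Pdk4 had the largest fall of the 10. It lies on chromosome 6 from 5483351 to 5496309 (mm10, minus strand), with no annotated gene overlapping it. Its normalised count was 5464, 7562, 11086 and 8531 across control replicates 1 to 4. In the libraries labelled knockout it was 2932, 3752, 1724 and 1959. The highest of these was below the lowest control, although the controls spread widely, replicate 1 being lowest and replicate 3 highest. The mean went from 8161 ± 2333 to 2592 ± 933.7 (SD, n = 4 each), or 31.8% of control, a log2 difference of -1.68 (SE 0.27). Only 0.268% of the genes tested had a lower log2 difference, which puts Pdk4 at rank 41 from the bottom by size. By p-value it stood at rank 283, since its spread was also large. Leaving out 1 library at a time gave differences of -1.88 to -1.51.

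Pdk2, the kinase isoform found in most tissues, had a smaller fall. It lies on chromosome 11 from 95026258 to 95041354. It read 7221, 9487, 8129 and 8317 in the controls and 5424, 4807, 6500 and 4773 in the libraries labelled knockout. All 4 of the latter were below all 4 controls, and the mean went from 8288 ± 931.3 to 5376 ± 806.6, or 64.9% of control (log2 difference -0.63, SE 0.12). Gm11513 lies opposite Pdk2, but its own row held no more than 3.26 in any library.

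Pdk1, the isoform known as a target of the hypoxia factor HIF, did not separate the groups. It lies on chromosome 2 from 71873224 to 71903858. Its counts were 1337, 1209, 1080 and 1599 in the controls and 1155, 1051, 1008 and 1149 in the libraries labelled knockout. The ranges overlapped, at 1306 ± 221.5 against 1091 ± 72.7 (log2 difference -0.25, SE 0.12, not called).

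Pdk3, on chromosome X from 93764607 to 93832201, was the rarest of the 10 per kilobase in the controls and the 1 kinase called higher. It read 55.2, 36.3, 43.9 and 49.3 in the controls and 92.7, 63.3, 68.5 and 93.3 in the libraries labelled knockout. The lowest of the latter exceeded the highest control, and the mean went from 46.2 ± 8.0 to 79.5 ± 15.8, or 172% of control (log2 difference 0.76, SE 0.21). That call was held in 3 of the 8 fits that left out 1 library, and was lost without control replicate 2, 3 or 4 or without knockout replicate 1 or 4.

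Levels of different genes were compared per kilobase of annotated exon. In the controls Pdk2 stood at 2620 ± 294 normalised reads per kilobase and Pdk4 at 2324 ± 664, and these overlapped, Pdk2 being the higher in 3 of 4 libraries. Pdha1 followed at 2027 ± 188, which also overlapped Pdk4. Below these came Pdhb at 1231 ± 85.5, Ucp3 at 766.6 ± 141, Pdp1 at 319 ± 45.1 and Pdk1 at 168 ± 28.5, each apart from its neighbours. Angptl4 at 35.8 ± 14.1, Pdp2 at 20.7 ± 2.18 and Pdk3 at 18.0 ± 3.13 came last, and neighbours among these 3 overlapped.

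In the libraries labelled knockout Pdk4 held the 4th place in that order, at 738 ± 266 reads per kilobase, where it had held the 2nd. Pdk2 at 1700 ± 255 and Pdha1 at 1441 ± 224 led, and overlapped. Pdhb followed at 984.6 ± 114. Pdk4 overlapped both Pdhb above it and Ucp3 below it, which stood at 437 ± 74.5. Angptl4, at 71.2 ± 25.7, and Pdk3, at 31.0 ± 6.17, were above Pdp2 at 16.6 ± 3.14.

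The 4 kinases together gave 4033, 5323, 5884 and 5284 reads per kilobase in the controls. In the libraries labelled knockout they gave 2735, 2748, 2702 and 2251. The sum was lower in all 4 of the latter, at 2609 ± 239 against 5131 ± 782. Without Pdk4 the sum was still lower in all 4, at 1871 ± 248 against 2806 ± 288. Pdk4 made up 38.6%, 40.5%, 53.7% and 46.0% of the kinase sum in the controls and 30.5%, 38.9%, 18.2% and 24.8% in the libraries labelled knockout. Its mean share thus went from 44.7% ± 6.77 to 28.1% ± 8.79, but the groups overlapped, since knockout replicate 2 was above control replicate 1. Without division by exon length these 2 libraries stood at 38.79% and 38.82%, and the groups just failed to overlap. The ratio of Pdk4 to Pdk2 per kilobase overlapped, at 0.888 ± 0.251 against 0.450 ± 0.197. The shares of the minor kinases did not overlap. Pdk1 went from 3.36% ± 0.873 to 5.43% ± 0.804 of the sum, and Pdk3 from 0.364% ± 0.121 to 1.21% ± 0.329.

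**Figure D2:**
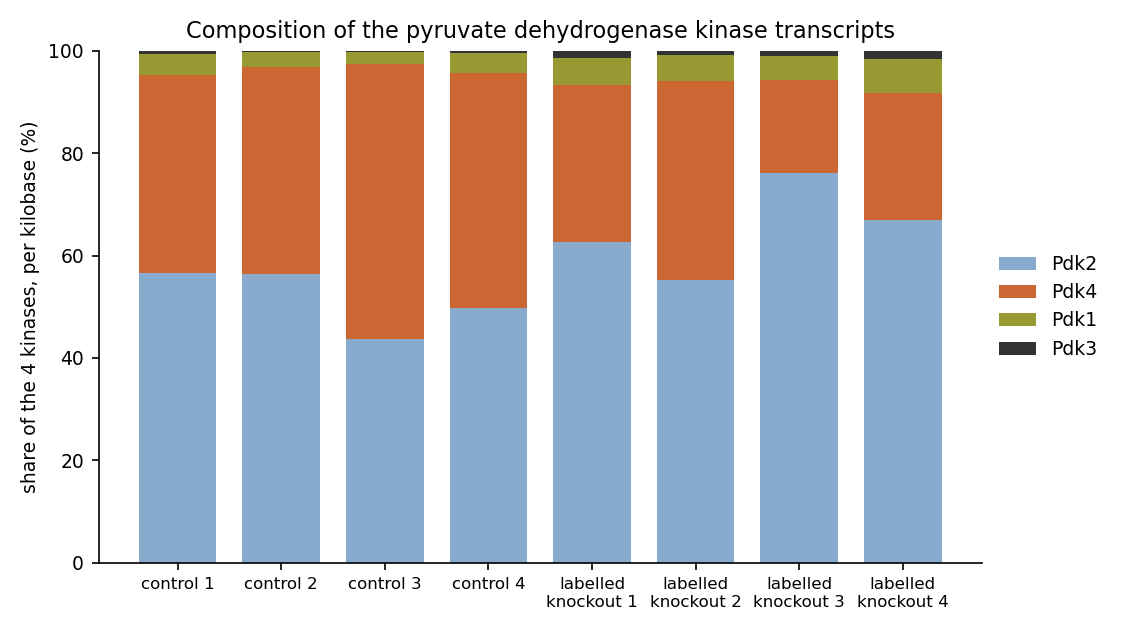
Share of each kinase in the summed level of the 4 kinases (y axis, percent, from normalised reads per kilobase of exon) in each of the 8 libraries (x axis). Pdk2 and Pdk4 fill most of every bar. The Pdk4 part runs from 38.6% to 53.7% in the controls and from 18.2% to 38.9% in the libraries labelled knockout.

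Neither phosphatase was called with all 8 libraries. Pdp1, the calcium-stimulated phosphatase of muscle, lies on chromosome 4 from 11958184 to 11966452. It read 1158, 1639, 1509 and 1452 in the controls and 1242, 1222, 975.5 and 1275 in the libraries labelled knockout. Control replicate 1 was below 3 of the libraries labelled knockout, so the groups overlapped (log2 difference -0.28, SE 0.13, not called). Without that library the difference was -0.39 and Pdp1 was called lower. Pdp2, on chromosome 8 from 104591451 to 104599026, ranged from 100.9 to 130.9 in the controls and from 71.8 to 115.3 in the libraries labelled knockout (log2 difference -0.32, SE 0.17, not called). Pdp1 made up 93.8% ± 1.41 of the 2 phosphatases per kilobase in the controls and 94.1% ± 0.510 in the other group.

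The ratio of the kinase sum to the phosphatase sum, both per kilobase, was 14.4, 13.8, 16.7 and 15.4 in the controls. It was 9.34, 9.55, 11.8 and 7.42 in the libraries labelled knockout. The groups did not overlap, at 15.1 ± 1.26 against 9.53 ± 1.79. Such a ratio is free of the scaling between libraries but not of the mix of tissues, whose part in it was not tested. It also concerns transcripts and not the activity of the enzymes.

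Pdha1 encodes the subunit that carries the phosphorylation sites, and lies on chromosome X from 160122209 to 160138413. It read 6911, 8496, 7162 and 7702 in the controls and 4698, 5482, 6524 and 4816 in the libraries labelled knockout. All 4 of the latter were lower, with a mean of 5380 ± 837 against 7568 ± 701, or 71.1% of control (log2 difference -0.50, SE 0.12). Map3k15 lies opposite it, with 24.8 to 63.8 reads in its own row. Pdhb, its partner subunit, on chromosome 14 from 8165996 to 8173025, read 4406, 5150, 4572 and 4880 in the controls and 3386, 3679, 4425 and 3716 in the libraries labelled knockout. It was called lower (log2 difference -0.33, SE 0.10) with groups that just overlapped, knockout replicate 3 standing above control replicate 1. The call for Pdhb was held in 2 of 8 fits that left out a library, and that for Pdha1 in 6, being lost without control replicate 2 or knockout replicate 4.

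The ratio of Pdha1 to Pdhb per kilobase was 1.62, 1.71, 1.62 and 1.63 in the controls and 1.44, 1.54, 1.52 and 1.34 in the libraries labelled knockout. These subunits are assembled in equal numbers, and their transcripts kept a ratio of 1.65 ± 0.041 in the controls and a lower one, of 1.46 ± 0.0926, in the other group, with no overlap. Pdk4 per Pdha1 was 0.841, 0.947, 1.65 and 1.18 in the controls and 0.664, 0.728, 0.281 and 0.433 in the libraries labelled knockout. That ratio was lower in all 4 of the latter, whereas Pdk2 per Pdha1 overlapped, at 1.29 ± 0.0473 against 1.19 ± 0.135.

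Ucp3 encodes a carrier of the inner mitochondrial membrane, made mainly in skeletal muscle. It lies on chromosome 7 from 100472990 to 100486432. Its counts were 2005, 2968, 2539 and 2102 in the controls and 1561, 1557, 1285 and 1078 in the libraries labelled knockout. The groups did not overlap, and the mean went from 2403 ± 442 to 1370 ± 233, or 57.0% of control (log2 difference -0.81, SE 0.16). Gm10603, opposite it, held 16.3 to 50.4 in its own row.

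Angptl4, on chromosome 17 from 33773750 to 33781830, encodes a secreted inhibitor of lipoprotein lipase. It read 184.9, 117.1, 140.2 and 64.6 in the controls and 276.3, 364.3, 149.0 and 219.2 in the libraries labelled knockout. The mean was higher in the latter, at 252.2 ± 91.1 against 126.7 ± 50.1 (log2 difference 1.01, SE 0.34), but the groups overlapped and the gene was not called. It was called without control replicate 1, without knockout replicate 3 and in 2 of 11 other settings. So the means of the 2 PPAR targets differed in opposite directions.

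The knee libraries hold much muscle RNA, and the amount differed between the groups. In bulk tissue fewer cells of a type and less RNA per cell cannot be told apart. Over 20 skeletal muscle markers the summed normalised count ran from 2607869 to 2847305 in the controls and from 1283638 to 1788098 in the libraries labelled knockout. Of these 20 genes, 10 were called lower and none higher, with a median log2 difference of -0.69. None was at 0, but Tnnc2, named after its values were seen, was low, at 6.16 to 19.6 normalised reads. The mean log2 level of the 20 genes is used here as a muscle score. It was 15.86 ± 0.0912 in the controls and 15.18 ± 0.210 in the libraries labelled knockout, with no overlap.

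Relative to that score, the log2 level of Pdk4 was -3.39, -3.11, -2.38 and -2.76 in the controls and -3.75, -3.31, -4.63 and -3.95 in the libraries labelled knockout. The mean difference was then -0.998, but the groups then overlapped, knockout replicate 2 being above control replicate 1. The difference relative to muscle was 0.05 for Pdk2, 0.18 for Pdha1 and -0.13 for Ucp3, with overlap for all 3. It was 0.40 for Pdp1, 0.36 for Pdp2 and 0.43 for Pdk1, also with overlap. Pdhb at 0.35, Pdk3 at 1.45 and Angptl4 at 1.69 were higher relative to muscle, with groups that did not overlap. Leaving Tnnc2 out of the score, a setting not planned, gave -0.96 for Pdk4 and 0.09 for Pdk2. With the full score as a covariate in the fit none of the 10 genes was called. The difference was then -1.62 for Pdk4, 0.00 for Pdk2, 0.01 for Pdha1 and -0.12 for Ucp3. It was -0.98 for Pdp2, -0.48 for Pdk1, -0.46 for Pdp1 and -0.06 for Pdhb, opposite in sign to their differences relative to muscle. Pdk3 was at 0.11 and Angptl4 at 0.60 in that fit. The group and the muscle score cannot be told apart well in these libraries, as 85.5% of the score's variance lay between the groups.

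**Figure D3:**
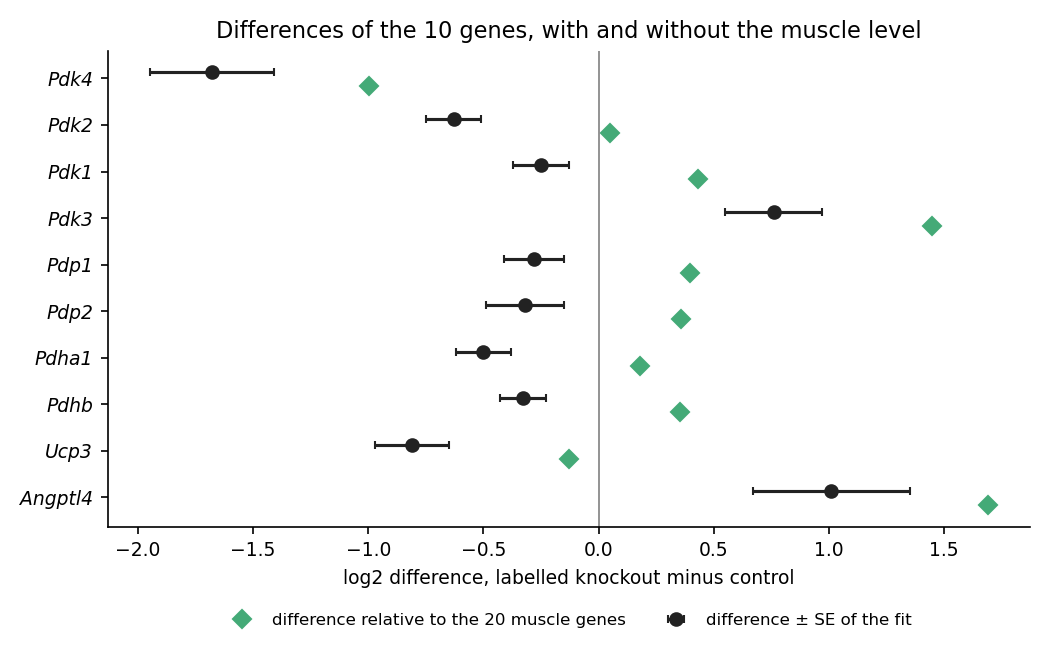
Log2 difference, labelled knockout minus control, for each of the 10 genes (y axis). Black circles with bars give the fitted difference ± SE, and green diamonds give the difference relative to the mean log2 level of the 20 muscle genes, without error bars. Pdk4 stays farthest below 0 on both, while Pdk2 moves from -0.63 to 0.05.

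**Figure D4:**
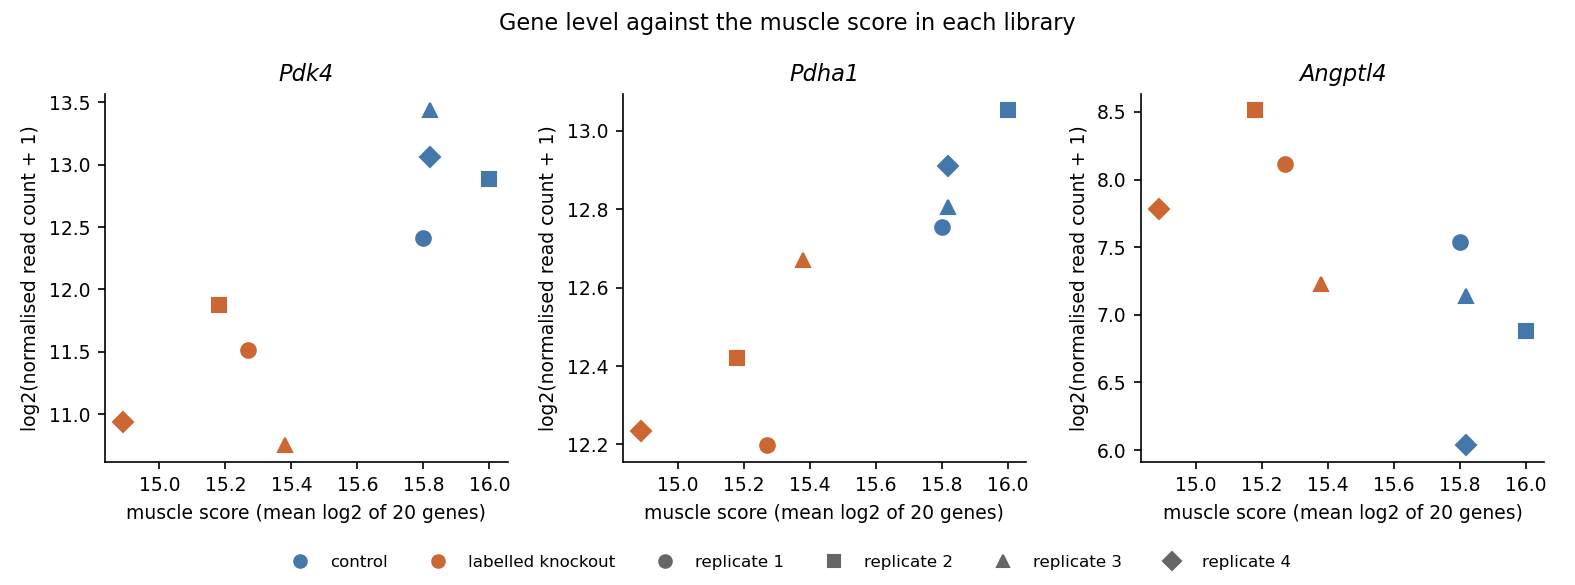
Log2 level of Pdk4, Pdha1 and Angptl4 (y axes, not starting at 0) against the muscle score (x axis) in each of the 8 libraries, blue for control and orange for labelled knockout, with marker shape for replicate number. The groups do not overlap on the x axis. Among the controls the score runs from 15.8 to 16.0 and Pdk4 from 5464 to 11086 reads. Whether the score and Pdk4 vary together within a group was not tested.

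Slow muscle was examined apart, because the fibre type of the muscle in a joint sample can vary. Over 8 slow muscle markers the score was 12.1, 10.8, 8.52 and 12.0 in the controls and 10.3, 9.74, 8.13 and 11.6 in the libraries labelled knockout. It was lowest in replicate 3 of either group, and Pdk4 was highest in control replicate 3 and lowest in knockout replicate 3. None of the 8 was called by limma, and all 8 were below 0 (median -0.88). With this score as the reference in place of the muscle score, the difference of Pdk4 was -0.79 and that of Ucp3 0.08. The slow score itself overlapped between the groups, at 10.83 ± 1.65 and 9.94 ± 1.45. Its spread within each group exceeds these differences, so little is read from them.

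Markers of other tissues of the joint were measured in the same way. All 8 macrophage markers were called higher, their sum being 1407 to 3229 in the controls and 5006 to 6777 in the libraries labelled knockout. Of 8 fibroblast markers 7 were called higher, with sums of 37877 to 118650 and 166831 to 269627. Of 9 fat cell markers 1 was called, lower. This was Pnpla2, a triglyceride lipase also made in muscle, named after its value was seen (-0.80), and it was also the most abundant of the 9 in the controls. The sums, 7589 to 9046 and 5649 to 7549, did not overlap, but the mean log2 levels of the 9 did, at 8.17 ± 0.685 and 7.94 ± 0.205. Cartilage markers had 2 of 10 called, both higher, with overlapping sums of 15276 to 37982 and 32030 to 56122. None of the 6 red cell precursor markers was called, but all 6 were below 0 with a median of -1.89, and their sums overlapped, at 14297 to 83720 and 3773 to 37414. None of the 6 endothelial markers was called either, and their median was -0.08. Of all these markers, those of cartilage alone included a gene at 0 in a library. The part of these tissues in the levels of the 10 genes was not tested.

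Beside the counts of each list below stand 11.6% of all genes tested called lower and 11.6% called higher. In the rest of the complex all 4 listed genes were called lower, with a median log2 difference of -0.57 against 0.00 over all genes tested. They are Pdhx, the protein that holds the third enzyme in place (-0.60, limma adjusted p = 0.00717), and Dlat, the acetyl-transferring core (-0.54, adjusted p = 0.0158). The others are Pdpr, the regulatory subunit of the phosphatase (-0.67, adjusted p = 0.0277), and Dld, the dehydrogenase shared with other complexes (-0.34, adjusted p = 0.0339).

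Genes that supply pyruvate or use it otherwise were called lower in 4 of 10 cases and higher in none, with a median of -0.46 and a range of -0.96 to 1.13. The 4 were Gpt2, an alanine transaminase (-0.96, limma adjusted p = 0.00997), Pkm, a pyruvate kinase (-0.61, adjusted p = 0.0174), Slc16a3, a lactate exporter (-0.61, adjusted p = 0.0214), and Ldha, a lactate dehydrogenase (-0.54, adjusted p = 0.0307). The complex that oxidises branched-chain keto acids is built and switched in the same way, by a kinase and a phosphatase of its own. Of its 5 listed genes 3 were called lower and none higher (median -0.43). These were Bckdk, its kinase (-0.56, limma adjusted p = 0.0079), Bckdha (-0.67, adjusted p = 0.00812) and Dbt (-0.43, adjusted p = 0.0178).

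The receptors and factors that act on Pdk4 had 4 of 14 genes called, all lower, with a median of -0.31. Lpin1, a coactivator of PPARA, differed by -0.87 (limma adjusted p = 0.00398) and Rxra, the partner of the PPARs on DNA, by -0.48 (adjusted p = 0.00588). Esrra, an oestrogen-related receptor, differed by -0.45 (adjusted p = 0.0244) and Ppara itself by -0.77 (adjusted p = 0.0466).

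Of 24 other PPAR targets, most of them genes of fatty acid transport and oxidation, 19 were called lower and none higher, with a median of -0.71. Plin5, a lipid droplet protein of oxidative tissue, differed by -1.31 (limma adjusted p = 0.00397). Hadha, of the trifunctional protein of fatty acid oxidation, differed by -0.89 (adjusted p = 0.00397), Acsl1, an acyl-CoA synthetase, by -0.86 (adjusted p = 0.00422) and Slc25a20, the carnitine carrier, by -0.86 (adjusted p = 0.00425). Among the 5 not called were Ucp2 (0.39), Cpt1a (0.20), Plin2 (-0.04) and Acot1 (-0.39), named after their values were seen. Cpt1a is the liver-type form of the carnitine transferase, and Ucp2 and Plin2 are made in many cell types.

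Targets of glucocorticoids and FoxO, which also act on Pdk4, were less uniform. Of 16 genes 15 were tested, Mt2 being the exception, and 1 was called higher, 3 lower and 11 not, with a median of -0.32. Mt1, a metallothionein, was higher by 1.20 (limma adjusted p = 0.00687). Sgk1, a kinase, differed by -0.36 (adjusted p = 0.029), Klf9, a transcription factor, by -0.37 (adjusted p = 0.0385) and Trim63, a ubiquitin ligase of muscle atrophy, by -0.57 (adjusted p = 0.0397). Among 10 genes of general mitochondrial content 8 were called lower and none higher (median -0.54), among them Cs, Ogdh and Sdha of the citric acid cycle, at -0.71, -0.73 and -0.59 (limma adjusted p = 0.00711, 0.00724 and 0.0111).

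Over the 7 lists of neighbouring pathways 46 of 82 genes were called, 45 of them lower, against 23.2% of all genes tested. Without control replicate 2 the count was 27. The mean log2 levels of the 7 lists differed by -0.05 (glucocorticoid and FoxO targets) to -0.62 (other PPAR targets). The muscle score, also a mean log2 level, differed by -0.68. By the median difference of their genes, the other PPAR targets stood at -0.71 and the skeletal muscle markers at -0.69. The part of muscle in these lists was not tested. With each library scaled to the total of the genes that remain after the most abundant ones and the muscle and red cell markers are removed, a choice made after seeing the data, the median of all genes tested rose by 0.15. With the same genes removed and the scaling left at the median of ratios, 1729 genes were called higher and 1754 lower, 46 of them in the lists. Under the total scaling the lists had 32 genes called, 30 of them lower, and among all tested genes 2679 were called higher and 790 lower, against 1732 and 1729. Under that scaling Pdk4 differed by -1.53, Pdk2 by -0.48, Pdha1 by -0.35 and Pdhb, no longer called, by -0.18.

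**Figure D5:**
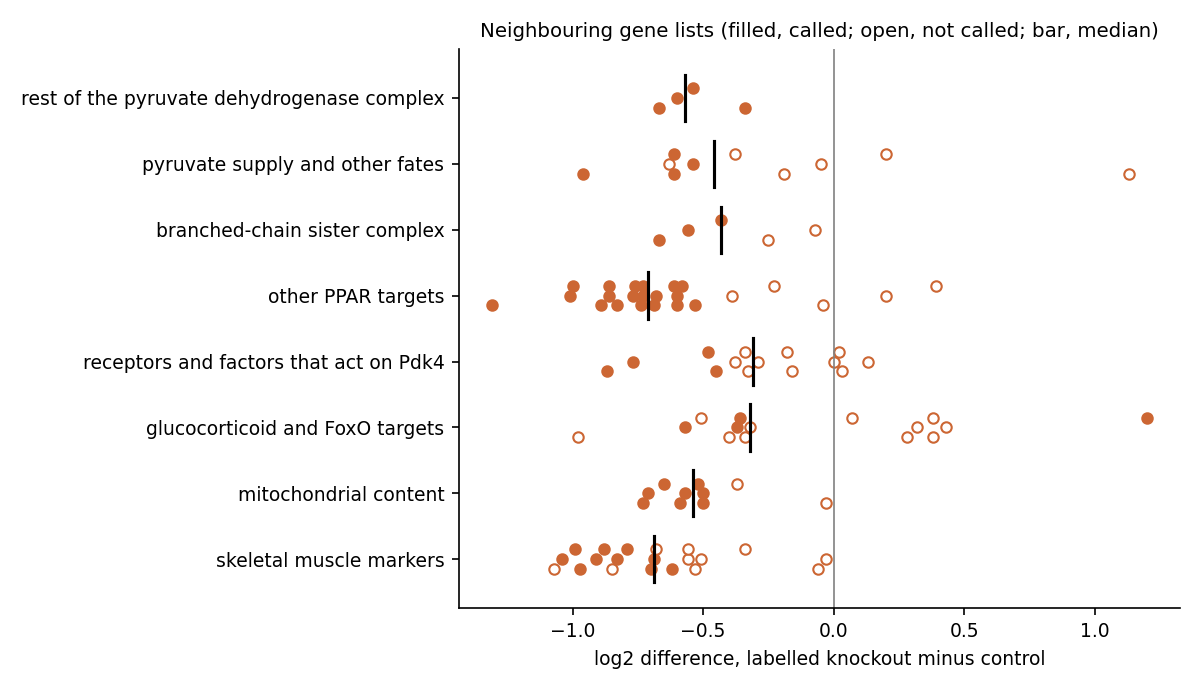
Log2 difference, labelled knockout minus control, (x axis) for each tested gene of 7 neighbouring pathway lists and of the skeletal muscle markers (y axis). Filled points were called by limma and open points were not, and the vertical bar is the list's median. The medians lie between -0.71 for the other PPAR targets and -0.31 for the receptors and factors.

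The genes whose profile over the 8 libraries was most like that of Pdk4 were sought among 11636 other genes with a mean of at least 50, by the root mean square of the difference between centred log2 values. Myoz3, a Z-disc protein of fast muscle fibres, came first at 0.376, followed by Slc38a4, an amino acid transporter, at 0.390. Samd10 stood at 0.426, Nt5c1a, an AMP-cutting nucleotidase of muscle, at 0.441, and Prkag3, a muscle subunit of AMP-activated kinase, at 0.446. Myoz3 read 1267, 1309, 1338 and 1400 in the controls and 704.1, 746.6, 466.5 and 521.1 in the libraries labelled knockout, a log2 difference of -1.15 (SE 0.15). Among the 10 genes themselves Ucp3 was nearest to Pdk4, at 0.541, and Pdk2 followed at 0.703. Counted over all tested genes other than Pdk4, Ucp3 stood at rank 56 and Pdk2 at rank 637. Pdha1, Pdp1, Pdhb, Pdp2 and Pdk1 lay between 0.751 and 0.853, and Pdk3 and Angptl4 were farthest, at 1.333 and 1.454. All these profiles share the same 8 libraries and their group difference, so they are given as a description.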

How the data were processed

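RNA of 8 samples of mouse knee joint was sequenced after poly-T capture. Per the submitters' processing notes the authors used HISAT2, featureCounts and build mm10, and per the series' design text DESeq2; versions, annotation and use of strand in counting are not given in the sources used here. The deposited values are a normalised signal, read counts divided by a size factor per library. Every value was a whole number of reads within 0.1 read once multiplied by that factor, and the size factors equalled the median of ratios. All value columns matched a sample's labels (0 left over), and the smallest row sum was 10 reads. Counting error is included in the spread between libraries.

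Genes with at least 10 in at least 4 libraries (14949) were tested on log2(value + 1) with limma 3.58.1 (lmFit, eBayes with trend; R 4.3.3), with no covariate. Fold changes on that scale understate those of low genes. Alternatives were edgeR 4.0.16 and DESeq2 1.42.0 on the recovered reads, pseudocounts of 0.5 and 5, other filters, other scalings, a muscle score as covariate, a replicate block and leaving out each library. Loxl2 was also compared by an exact permutation test over 70 assignments. On simulated counts of this comparison (14730 genes, 197 changed) limma called 160, 9 of them falsely. It recovered 61.6% of the genes simulated with a log2 change of 1 and 91.8% of those with 2. The simulation held no shift in tissue mix and changed far fewer genes than the 23.2% called here. Its rates therefore need not hold for these libraries.

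The members, lists and tests were chosen with earlier results of these data known. Named were the 10 members, at most 4 called genes per pathway list with the smallest p, and the 5 genes nearest to Pdk4; other names were chosen after their values were seen, and a few genes of the lists are not reported here by name. Coordinates and exon lengths are from GENCODE M21 (mm10), which held 20520 of the row names (99.2%), and the promoters are from RefSeq.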

Additional observations from a re-analysis of the deposited data

Results flagged for a closer look

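In a group of 4 libraries, a value was singled out where its gap to the nearest of the others took up more of the group's range than Dixon's 95% critical value. Of 72 sets of 4 values examined 3 had such a value, and chance alone gives about 1 in 20. The kinase sum of knockout replicate 4, at 2251 normalised reads per kilobase, was below the other 3 of its group, at 2702 to 2748. The ratio of Pdha1 to Pdhb in control replicate 2, at 1.71, was above the other controls, at 1.62 to 1.63. The log2 level of Pdp1 relative to the muscle score in control replicate 1, at -5.62, was below those of the other controls, at -5.32 to -5.26.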

How the results depend on the processing

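The members were chosen with this contrast known, so the settings describe how far their values move and lend them no support. Apart from the covariate fit, the difference ran from -1.88 to -1.42 for Pdk4, -0.72 to -0.34 for Pdk2 and -0.89 to -0.65 for Ucp3. With the muscle score as a covariate 0 genes were called by limma over the table (554 at an unadjusted p under 0.05), against 3461 without it, 3324 by edgeR and 4125 by DESeq2. With it 0 of the 10 members were called, Pdk4 differed by -1.62, Pdha1 turned to 0.01 and Loxl2 differed by 0.37. Quantile normalisation left 3 members (Pdk4, Pdk2 and Ucp3) and 26 pathway genes called, gave -0.34 for Pdk2, -0.21 for Pdha1 and -0.04 for Pdhb, and moved the median of all genes by -0.08. Leaving out 1 library gave 1751 (without knockout replicate 4) to 3841 genes called, with 1887 without control replicate 2 and 2194 without control replicate 4, 3 to 8 members, 27 to 43 pathway genes, and a Loxl2 difference of 1.24 to 1.91. The Loxl2 difference was 1.23 in edgeR (adjusted p = 0.0669), and DESeq2 also gave 1.23 (adjusted p = 0.0659), neither a call. The deviations of same-numbered libraries from their group means correlated at 0.213, -0.118, -0.233 and -0.063, against -0.162 to 0.275 for differently numbered ones. These correlations cannot show whether the numbers mark a shared batch or litter, and the labels do not say. With a replicate block 2018 genes and 5 members were called, and Loxl2 differed by 1.44 (adjusted p = 0.0513). The causes were not tested. Depth bears on the members with few reads, which are Pdk3, Pdp2 and Angptl4.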
